A study of Homo sapiens with 12 samples.

Results

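The genes described here are 8 genes of the p53 pathway and of apoptosis: MDM2, MDM4, RRM2B, ZMAT3, TP53I3, BAX, BCL2L1 and XIAP, of 10992 genes with a peak. Every peak that carried the symbol of 1 of these genes was taken from 4 lists of ac4C peaks, which gave 137 peaks of 140401. N4-acetylcytidine (ac4C) is a modified cytidine in RNA, and NAT10 is the acetyltransferase that writes it. In ac4C-RIP-seq, RNA fragments of about 200 nt are captured with an antibody to ac4C and sequenced. The knockdown group was H1 cells, an established human embryonic stem cell line, that carried a NAT10 short hairpin RNA in the GV112 vector, delivered by a lentivirus with GFP. After 48 h of culture the GFP+ cells were enriched, and they were grown on in TeSR-E8 medium with 0.5 ug per ml puromycin. The line as such was kept in serum-free PGM1 medium on Matrigel. The other group was wild-type H1 cells, for which the labels name no control hairpin. Transduction, sorting, puromycin and medium thus cannot be told apart from the knockdown of NAT10. The labels name 1 cell line, no clone and no separate cultures, so p-values measure only the spread between these libraries, which may be technical.

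p53 is a transcription factor that stressed or damaged cells stabilise. It turns on genes that stop the cell cycle, repair DNA or start apoptosis, and MDM2 and MDM4 hold it in check, MDM2 by marking it for degradation and MDM4 mainly by blocking its activity. MDM2 is itself a p53 target, which closes a feedback loop. Apoptosis through mitochondria is set by the BCL2 family, in which BAX opens the outer membrane and the long form of BCL2L1 prevents it, while XIAP blocks caspases further down. Human embryonic stem cells are known to die readily after DNA damage.

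Each group had 2 immunoprecipitation libraries, each with its own peak list. The knockdown lists held 27787 and 36476 peaks and the wild-type lists 37988 and 38150. The peaks lay in 6930 and 7872 genes in knockdown and in 6926 and 7365 in wild type. The lists hold no read counts, so depth is unknown, and the amount of each RNA was not analysed here. A list in which a gene has fewer peaks therefore cannot tell less ac4C from less RNA. NAT10, the targeted gene, had 0 peaks in both knockdown lists and 7 and 9 in the wild-type lists. The lists number their peaks in the order of gene identifiers, and some numbers have no listed peak. Over the whole lists these were 7213 of 35000 and 8564 of 45040 numbers in knockdown. In wild type they were 6048 of 44036 and 6713 of 44863, a smaller share in each list. Within the NAT10 peaks of wild-type replicates 1 and 2 there were 0 and 2 such numbers. At the place of NAT10, knockdown replicates 1 and 2 had 3 and 4 numbers with no listed peak. No other gene was due there in knockdown replicate 1, and 1 was in knockdown replicate 2, so unlisted NAT10 peaks in knockdown are possible. Among 22 pluripotent cell markers, 13 and 15 had a peak in the knockdown lists and 18 in each wild-type list. Over all genes the numbers with a peak, given above, overlapped between the groups and were not lower in knockdown. TERF1, DPPA4, CDH1 and SALL4 were among the markers with the most peaks. DNMT3B and PRDM14 were the pluripotent markers that each wild-type list held and that no knockdown list did, 2 of 16 (12.5%), close to the 12.8% of all genes. Of 8 markers each of ectoderm, mesoderm, endoderm and trophectoderm, at most 2 of any lineage had a peak in any list.

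RefSeq start windows could be set beside the peaks for 7 of the 8 genes, and peaks overlapped them in BAX and MDM2 only. Both stretches are shown because a peak begins within them. They are read from RefSeq tables of build GRCh38.p14, which has the coordinates of hg38, on the plus strand. The MDM2 stretch (chr12:68808767-68809046) precedes and enters the internal start of MDM2 at 68809017, known as the promoter that p53 activates. Its capitals mark the only match, with 2 mismatches in 20 bases, to a pair of adjacent p53 consensus half-sites. The limit of 2 mismatches was set after the data were seen. Pairs with more mismatches were not marked, so the capitals do not give every possible p53 site. A match within this limit lay in 0.649% of 35116 start windows of 300 bases, and in no window of the other 6 genes. The match lay 94 bases before this start site, and the first MDM2 peak of knockdown replicate 1 began at 68809012, just before it. In the other 3 lists the first MDM2 peak began at 68809208 or 68809258. The BAX stretch (chr19:48954845-48954904) has the RefSeq start of BAX at 48954875, and its capitals mark the bases under the first BAX peak of knockdown replicate 2.
MDM2 internal start: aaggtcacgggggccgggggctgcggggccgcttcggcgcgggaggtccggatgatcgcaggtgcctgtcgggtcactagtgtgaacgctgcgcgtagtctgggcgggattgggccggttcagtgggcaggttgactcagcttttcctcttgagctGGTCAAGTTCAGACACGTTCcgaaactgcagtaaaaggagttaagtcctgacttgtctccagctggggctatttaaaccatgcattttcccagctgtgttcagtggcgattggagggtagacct
BAX start: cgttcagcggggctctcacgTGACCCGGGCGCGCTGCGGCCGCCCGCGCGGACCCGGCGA
The search read each window only in the direction of its gene, since the consensus reads the same on both strands. A match is a description of letters and does not show p53 binding.

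The 8 genes fell into 3 patterns. RRM2B, ZMAT3 and XIAP had peaks in each wild-type list and none in knockdown, MDM2 and MDM4 had peaks in all 4 lists but fewer in both knockdown lists, and TP53I3 and BAX had more peaks in both knockdown lists. BCL2L1 overlapped between the groups. Genes of the first kind are called lost: they were 3 of the 6 that each wild-type library listed (50%), and 12.8% of 5607 such genes over the whole lists. TP53I3, with peaks in each knockdown list and none in wild type, is called gained: it was 1 of 5 (20%), against 17.1% of 5612. Held by all 4 lists, or kept, were MDM2, MDM4 and BAX, 3 of 8 (37.5%), against 32.3% of 10992. In all, the genes held 25 and 31 peaks in knockdown and 39 and 42 in wild type, or 28.0 ± 4.24 against 40.5 ± 2.12 (SD, n = 2 each; two-sided exact permutation test, p = 0.333). Per 10000 peaks of the list, which takes out the shorter list of knockdown replicate 1, the values were 9 and 8.50 in knockdown and 10.3 and 11.0 in wild type. With 2 libraries a group 0.333 is the lowest p-value possible for any gene, so no difference in peak number passed a test.

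**Figure D1:**
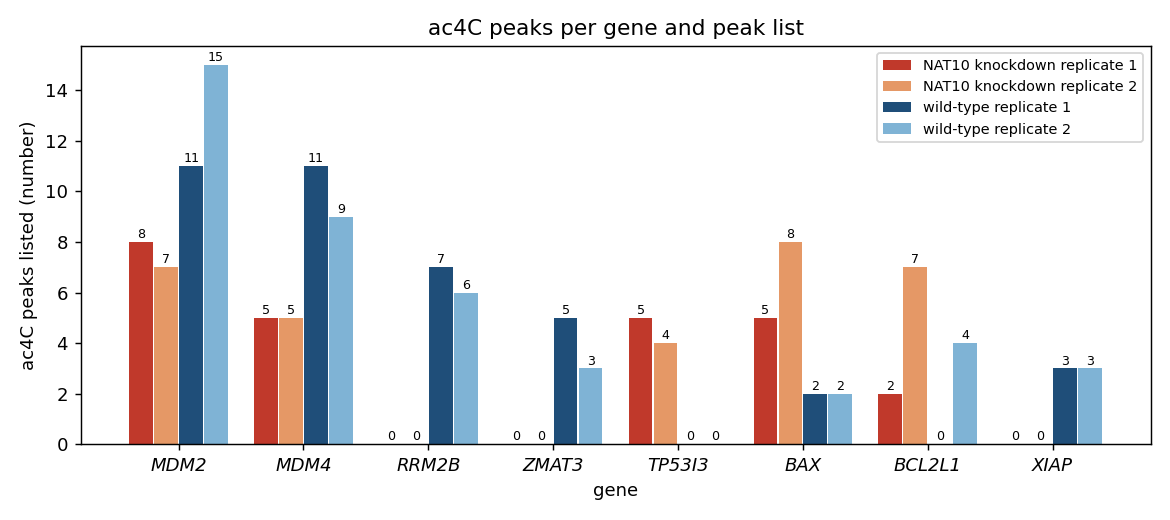
Number of ac4C peaks listed for each gene (y axis) in the 2 NAT10 knockdown lists (red and orange bars) and the 2 wild-type lists (dark and light blue bars), 1 bar per list with its number above it. RRM2B, ZMAT3 and XIAP have 0 in both knockdown lists, TP53I3 has 0 in both wild-type lists, and for BCL2L1 the groups overlap.

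MDM2, the ubiquitin ligase of p53 (ENSG00000135679, chromosome 12, RefSeq gene 68808172 to 68850686), had 8 and 7 peaks in knockdown and 11 and 15 in wild type (7.50 ± 0.707 against 13.0 ± 2.83, SD, n = 2 each; exact permutation p = 0.333). Both knockdown lists lay below both wild-type lists. Per 10000 peaks the values were 2.88 and 1.92 in knockdown and 2.90 and 3.93 in wild type, so knockdown replicate 1 and wild-type replicate 1 were then almost level. Without wild-type replicate 2 the difference was -3.50 peaks in place of -5.50. The MDM2 peaks covered 11584 and 2121 nt in knockdown and 8602 and 13489 nt in wild type, so the groups overlapped in covered length although not in number. The highest MDM2 score stood at percentiles 85.6 and 51.5 of the knockdown lists and at 98.6 and 94.5 of the wild-type lists. Scores are the authors', with no stated meaning, and serve here only to rank peaks within a list.

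Within MDM2 the clearest site was an interval of 402 nt (68819981 to 68820382) that 3 lists gave with identical edges. It had no peak in knockdown replicate 1 and stood at percentile 20.7 of knockdown replicate 2, while it stood at 98.6 and 94.5 of the wild-type lists, where it was the highest-scored MDM2 peak. A neighbouring interval of 1241 nt (68815706 to 68816946) went otherwise: it had percentile 75 in knockdown replicate 1 and none in knockdown replicate 2, against 74.0 and 79.1 in wild type. Same-strand peaks of the 4 lists were joined into regions wherever 1 bp or more was shared, and the words lost, gained and kept are used of regions as of genes. Over all genes, 52.2% of the regions that the wild-type pair shared were lost, 48.1% of those that the knockdown pair shared were gained, and 3.40% of all regions were kept. MDM2 formed 25 regions, of which 17 came from 1 list only. It had 1 kept region (68809012 to 68814617) and 2 lost regions (68823507 to 68824668 and 68839389 to 68839663). The kept region reaches the internal start only through the peak of knockdown replicate 1. Spans of such length can hold introns.

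MDM4, the MDM2 relative that inhibits p53 (ENSG00000198625, chromosome 1, RefSeq gene 204516406 to 204558120), had 5 and 5 peaks in knockdown and 11 and 9 in wild type (5 ± 0 against 10 ± 1.41, SD, n = 2 each; exact permutation p = 0.333). The groups did not overlap, also per 10000 peaks, with 1.80 and 1.37 in knockdown and 2.90 and 2.36 in wild type. In the stronger 50% of each list by score they did overlap, with a difference of -2.00 in place of -5.00 (exact permutation p = 0.667). Its peaks covered 6657 and 9249 nt in knockdown and 10628 and 12332 nt in wild type, most of it in a few long peaks. Within its run of peak numbers, 0 and 0 had no listed peak in knockdown and 1 and 2 in wild type. None of its 22 regions was kept in all 4 lists, none was shared by both knockdown lists, and 18 came from 1 list. The 2 lost regions lay at 204549163 to 204549487 and at 204551588 to 204551787. The second had identical edges in both wild-type lists, at percentiles 32.6 and 95.5, so the wild-type libraries differed widely in how they ranked the same interval.

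RRM2B, a p53-induced subunit of ribonucleotide reductase that supplies nucleotides for DNA repair (ENSG00000048392, chromosome 8, minus strand, RefSeq gene 102204501 to 102238961), had 0 and 0 peaks in knockdown and 7 and 6 in wild type (0 ± 0 against 6.50 ± 0.707, SD, n = 2 each; exact permutation p = 0.333). It had the most lost regions of the 8 genes, 4 of its 9. The region at 102207402 to 102207701 had percentiles 75.1 and 98.4 in wild type, and that at 102204877 to 102205076 had 84.2 and 95.9. Both lie near the end of the transcript, where 4 of 7 and 5 of 6 wild-type peaks fell in the last 25% of the gene. The lowest RRM2B peaks stood at percentiles 0.136 and 46.0 of the wild-type lists.

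ZMAT3, a p53-induced zinc finger protein that binds RNA (ENSG00000172667, chromosome 3, minus strand, RefSeq gene 179017223 to 179072513), had 0 and 0 peaks in knockdown and 5 and 3 in wild type (0 ± 0 against 4.00 ± 1.41, SD, n = 2 each; exact permutation p = 0.333). All 8 peaks lay in the last 25% of the gene. Their median percentiles were 22.8 and 41.0, below the middle of both wild-type lists. Only 1 of its 7 regions was shared by the wild-type lists, a 50 nt interval (179024132 to 179024181) with identical edges, at percentiles 70.6 and 3.45. ZMAT3 was thus listed in both wild-type libraries mostly at different places.

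XIAP, which binds and inhibits caspases (ENSG00000101966, chromosome X, RefSeq gene 123859708 to 123913972), had 0 and 0 peaks in knockdown and 3 and 3 in wild type (0 ± 0 against 3 ± 0, SD, n = 2 each; exact permutation p = 0.333). None of its 6 regions was shared by the wild-type lists, so the gene counts as lost while no single XIAP region does. Its highest peaks stood at percentiles 94.3 (123909675 to 123909899) and 96.4 (123911900 to 123912174) of the wild-type lists. Its lowest stood at 14.8 and 60.2. All 6 peaks lay in the last 25% of the gene.

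At the place of the 3 lost genes, knockdown replicate 2 had 0 numbers without a listed peak. Knockdown replicate 1 had 4 at RRM2B, 4 at ZMAT3 and 1 at XIAP, of which those at RRM2B and ZMAT3 could also belong to 1 and 5 other genes due at the same place. For XIAP no other gene was due there. In knockdown replicate 1 an unlisted peak in these genes is thus possible. Within the wild-type peak numbers of these genes, only RRM2B had an absent one, 1 in wild-type replicate 2.

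**Figure D2:**
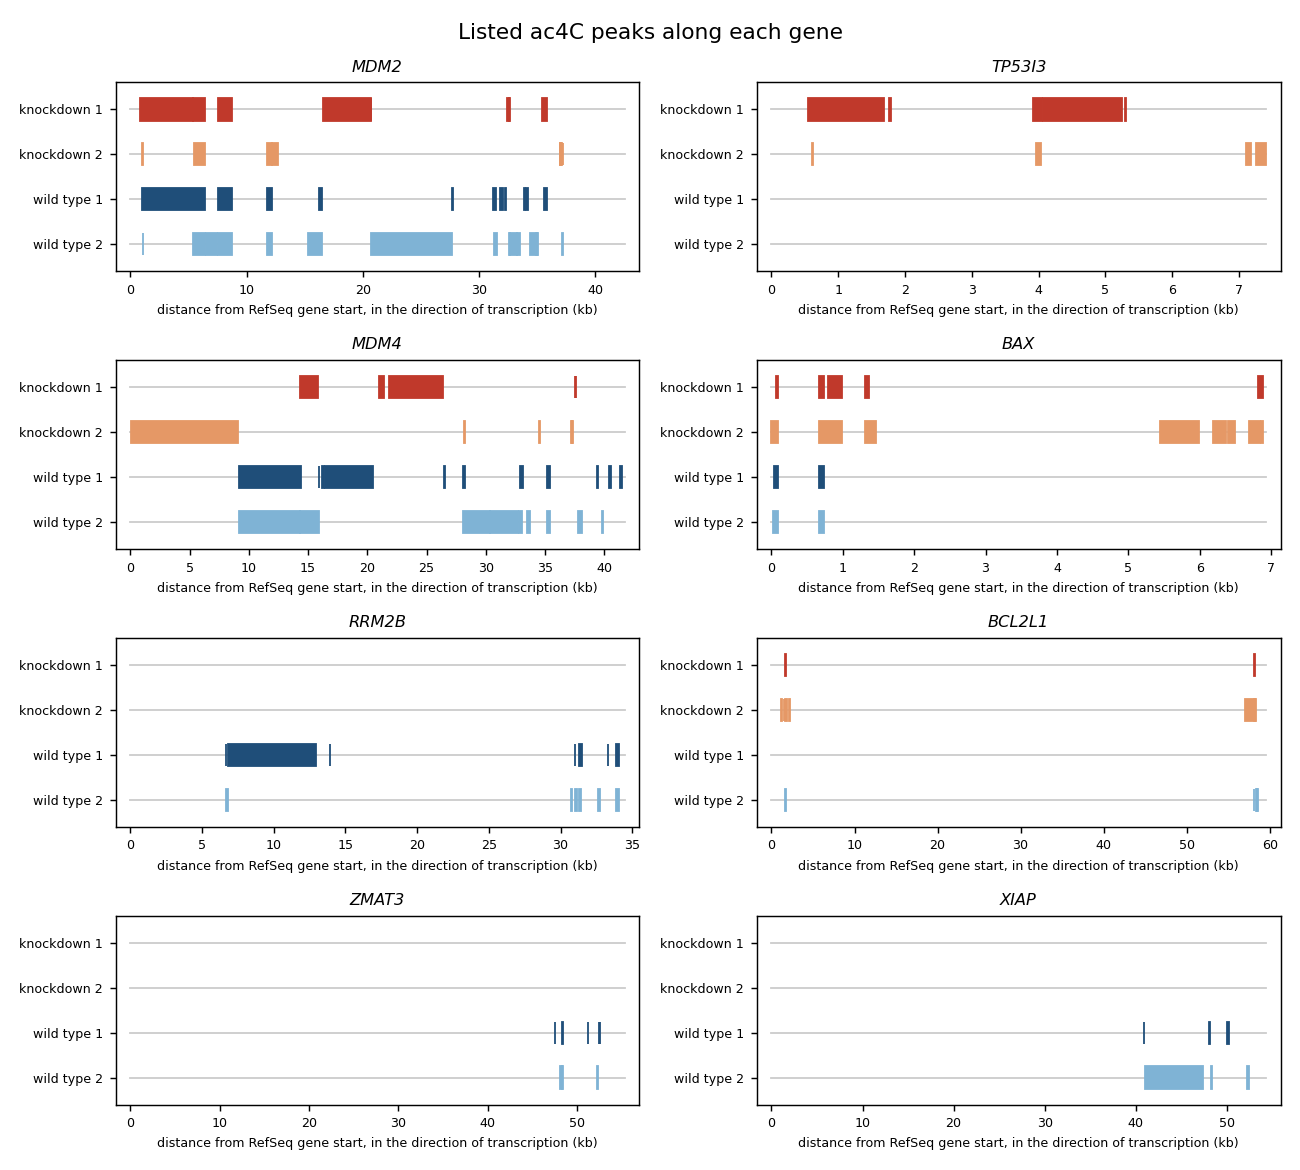
Position of every listed peak along each gene, in kb from the RefSeq gene start in the direction of transcription (x axis), with 1 row per list and the knockdown lists above the wild-type lists. The grey line is the RefSeq gene, narrow peaks are drawn at a minimum width, and the 8 ZMAT3 and 6 XIAP peaks sit near the right end of the wild-type rows only.

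TP53I3, an oxidoreductase that p53 induces and that is linked to reactive oxygen species (ENSG00000115129, chromosome 2, minus strand, RefSeq gene 24077433 to 24084834), had 5 and 4 peaks in knockdown and 0 and 0 in wild type (4.50 ± 0.707 against 0 ± 0, SD, n = 2 each; exact permutation p = 0.333). Of its 7 regions, 2 were gained, at 24080795 to 24080919 and at 24083148 to 24084283. Their percentiles were 17.1 and 41.9 for the first and 42.7 and 41.7 for the second, below the middle of both knockdown lists. Its highest peaks reached only 64.0 and 69.2. At the place of TP53I3, wild-type replicate 1 had 0 numbers without a listed peak and wild-type replicate 2 had 1. No other gene was due there in wild-type replicate 2, so an unlisted TP53I3 peak in that list is possible.

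BAX, which permeabilises the mitochondrial outer membrane (ENSG00000087088, chromosome 19, RefSeq gene 48954875 to 48961798), had 5 and 8 peaks in knockdown and 2 and 2 in wild type (6.50 ± 2.12 against 2.00 ± 0, SD, n = 2 each; exact permutation p = 0.333). The groups did not overlap. BAX held 2 of the 3 kept regions of the whole set. The first (48954865 to 48954964) lies at the gene start printed above, which the peak of knockdown replicate 2 alone covers, while the peak of knockdown replicate 1 began at 48954940 and those of wild-type replicates 1 and 2 at 48954915 and 48954890. Its percentiles were 95.4 and 76.6 in knockdown and 95.7 and 10 in wild type. The second (48955540 to 48955858) had 99.8 and 45.1 in knockdown and 93.8 and 43.9 in wild type. In both regions the values of the groups overlapped.

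Both gained BAX regions lay downstream of the kept ones. The gained region at 48956184 to 48956333 stood at percentiles 91.8 and 98.7 of the knockdown lists and had no peak in wild type. The other gained region, at 48961562 to 48961761 near the end of the gene, stood at 16.5 and 95.0. A further 3 BAX regions came from knockdown replicate 2 alone, at 48960314 to 48960861, 48961062 to 48961236 and 48961262 to 48961361. In wild type, both BAX peaks of each list lay in the first 25% of the gene.

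BCL2L1, whose long form protects cells from apoptosis and whose short form promotes it (ENSG00000171552, chromosome 20, minus strand, RefSeq gene 31664452 to 31723963), had 2 and 7 peaks in knockdown and 0 and 4 in wild type (4.50 ± 3.54 against 2.00 ± 2.83, SD, n = 2 each; exact permutation p = 0.667). The groups overlapped, and replicates differed by more than the groups did. Without knockdown replicate 2 the difference was 0, and without wild-type replicate 1 it was 0.500 peaks, while it was 5 without knockdown replicate 1 and 4.50 without wild-type replicate 2. In the stronger 50% of each list the groups did not overlap (difference 2.50, exact permutation p = 0.333). Peaks sat at both ends of the gene. The region at 31722143 to 31722367, near the start, had percentiles 75.2 and 66.1 in knockdown and none and 70.0 in wild type. That at 31665752 to 31665876, near the end, had 53.3 and 43.0 in knockdown and none and 41.2 in wild type. At the place of BCL2L1, wild-type replicate 1 had 1 number without a listed peak. No other gene was due there, so an unlisted BCL2L1 peak in that list is possible.

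**Figure D3:**
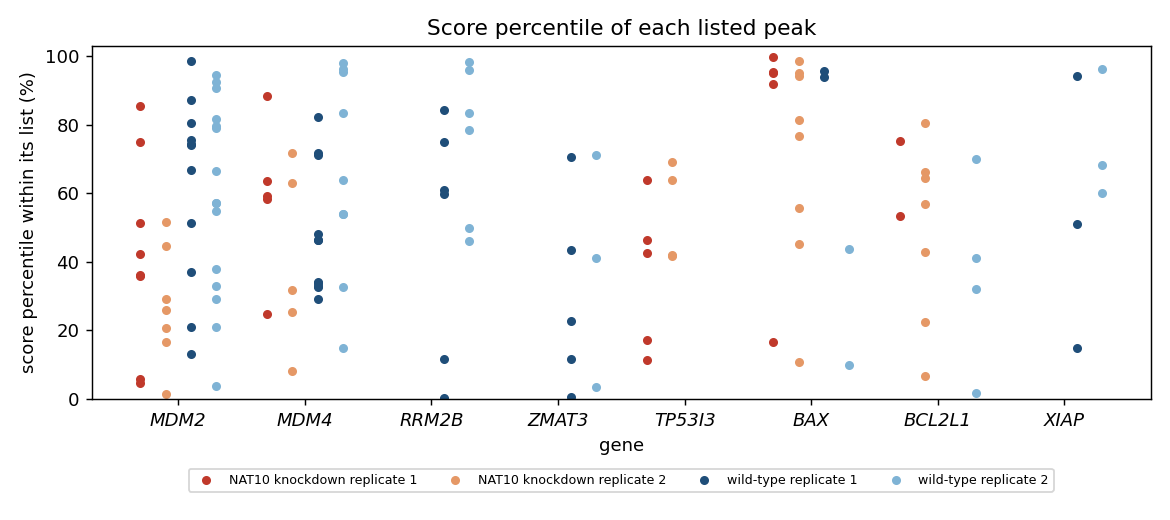
Score percentile of each listed peak within its own list (y axis, in percent) for each gene, 1 point per peak, with the 2 knockdown lists (red and orange) left of the 2 wild-type lists (dark and light blue). MDM2 points above 90 occur in the wild-type lists only, and the highest point of the plot is a BAX peak at 99.8 in knockdown replicate 1.

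The peaks of the 8 genes were ordinary in rank. In the middle of their ranking by score stood percentiles 53.3 and 45.1 in knockdown and 51.1 and 58.7 in wild type, where the middle of a list is 50. By position, 40.0 and 35.5% of them lay in the first 25% of their gene in the knockdown lists and 12.8 and 19% in the wild-type lists. Over all genes matched to RefSeq (98.7% of peaks) the same shares were 22.9 and 21.9% in knockdown and 14.7 and 17.2% in wild type, so the order of the groups was the same across all genes. In the last 25% lay 28.0 and 51.6% in knockdown and 56.4 and 64.3% in wild type, against 40.4 and 42.5% and 49.3 and 47.4% over all genes. Different genes were pooled in the groups, as RRM2B, ZMAT3 and XIAP had no knockdown peaks and TP53I3 had no wild-type peaks. The shares of the set therefore do not measure a shift of peaks within a gene.

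All 8 genes had at least 6 peaks over the 4 lists, and the shares of lost and gained genes depend on that number. Among genes with as many peaks, 8.50% were lost, 11.7% gained and 47.8% kept, so the share kept in the set (37.5%) lay below this background and above that of all genes. Of 7423 such genes, 29.3% had fewer peaks in each knockdown list than in any wild-type list, and 19.8% had more. In the set these were 5 and 2 of 8 genes. The set was chosen with earlier results of these lists known, so its share of lost genes is a description and no test was made.

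By region the set was close to the background. The wild-type pair shared 16 regions, of which 9 were lost (56.2%, against 52.2% over all genes). The knockdown pair shared 9, of which 4 were gained (44.4%, against 48.1%). Kept in all 4 lists were 3 of 92 (3.26%, against 3.40%). A single list held 67 of the 92 regions (72.8%), against 69.1% over all regions. A share near the background is not a result about these genes.

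**Figure D4:**
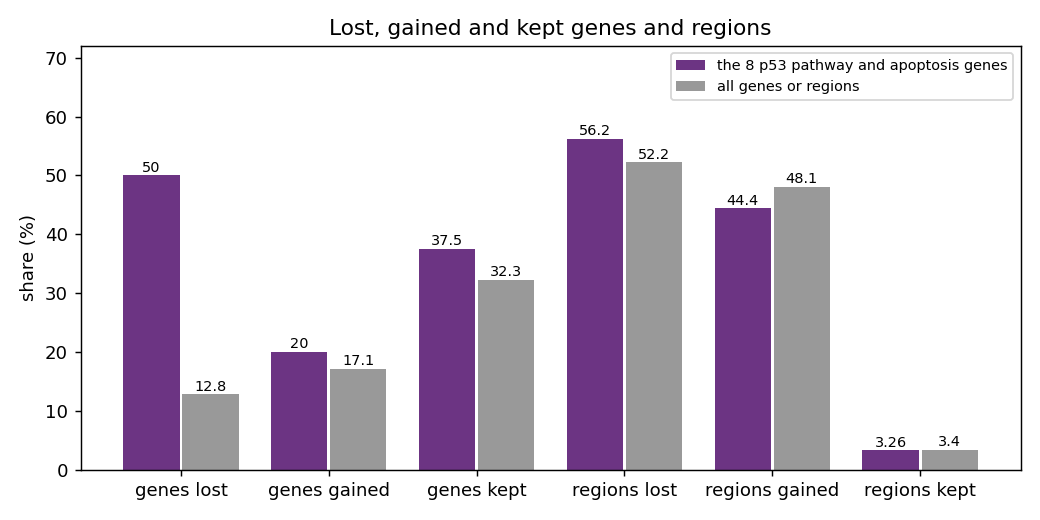
Share of genes and regions that were lost, gained or kept (y axis, in percent), for the 8 p53 pathway and apoptosis genes (purple) and for all genes or regions (grey). The denominators are those given in the text, 6, 5 and 8 genes and 16, 9 and 92 regions for the purple bars. Lost genes differ most, at 50% against 12.8%, and all 3 region shares lie within a few points of the background.

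The other genes of the pathway were taken from 6 lists of 181 genes, of which 128 had a peak in any list. Lost were 4 of the 77 genes that each wild-type library listed (5.19%), and gained were 7 of the 76 that each knockdown library listed (9.21%), both below the shares over all genes.

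Among p53 and its regulators, 0 of 32 were lost and 3 of 28 were gained (10.7%, against 17.1% over all genes). The gained genes were RPL5, a ribosomal protein that can bind MDM2 (4 and 4 peaks in knockdown), PPP1R13L, an inhibitor of p53 also called iASPP (3 and 3), and WRAP53, whose protein takes part in telomerase assembly (3 and 2). Reads of RPL5 may also come from near-identical pseudogenes.

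Among other p53 target genes, 2 of 17 were lost (11.8%) and 3 of 19 gained (15.8%), close to the 12.8% and 17.1% over all genes. The lost ones were TIGAR, which lowers glycolysis (4 and 2 peaks in wild type), and SESN1, a stress-induced inhibitor of mTORC1 signalling (2 and 2). The gained ones were RPS6KA1, a kinase (4 and 5 peaks in knockdown), TP53I11 (4 and 5) and CMBL, a hydrolase (2 and 2). CDKN1A, the cell cycle inhibitor p21, named after its values were seen, had 3 and 5 peaks in knockdown and 4 and 0 in wild type.

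Of the other BCL2 family genes 0 of 12 were lost and 0 of 15 gained, and of the other inhibitor of apoptosis genes and their antagonists 0 of 5 were lost and 0 of 3 gained. Of caspase and apoptosome genes 0 of 9 were gained. Among death receptor genes, 1 of 5 was lost and 1 of 4 gained, where a single gene sets each share. TNFRSF10A, a TRAIL receptor, had 0 and 0 peaks in knockdown and 2 and 2 in wild type. TNFRSF1A, a TNF receptor, had 2 and 7 in knockdown and 0 and 0 in wild type.

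Likeness to a member was measured as the summed absolute difference in peak number over the 4 lists. MLEC matched MDM4 exactly (5 and 5 peaks in knockdown, 11 and 9 in wild type), and ITFG1, NUSAP1 and TRIT1 matched RRM2B exactly. PLEKHA5 and SMC1A were nearest to MDM2, at a summed difference of 2. For the other members 5 to 31 genes were tied at the smallest sum.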

How the data were processed

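Peak lists were deposited by the authors, 1 per immunoprecipitation library, with a score per peak whose meaning is not given in the sources used here. Positions and peak numbers are likewise as deposited. The submitters' processing notes name the build hg38 and, with no order, the tools bedtools 2.30.0, SAMtools 1.12, HISAT2 2.2.1 and fastp 0.21.1. Which peak caller, threshold, control and annotation were used is not given in the sources used here. Libraries of input and IgG are not analysed here. Each list was matched to its library by the genotype and replicate in its name. The labels give the molecule as poly(A) RNA, while the protocol removes ribosomal RNA from total RNA, and this was not settled here.

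Starts were turned to count from 1. Scores were ranked within a list as percentiles. Symbols shared by several identifiers were replaced by the identifier. Peaks were merged, counted and compared in Python 3.11.15 with pandas 2.3.3 and NumPy 2.4.6, and the merging was tested on simulated data. Numbers of peaks were compared with an exact two-sided permutation test of 6 arrangements, and lists of genes were described by counts. The alternatives left out each library, kept the stronger 50% of peaks or peaks of at most 1000 nt, changed the overlap or strand rule, required 2 peaks, used the replicate number as a block, and, added after seeing the data, scaled by list size.

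The members and gene lists were chosen with earlier results of these data known. All members were named, and of each other list the lost and gained genes, at most 5 per direction, by summed peak number, and at most 5 pluripotent markers. Some results for genes of these lists are not reported here. The rule for sequences asked for coding exons, which could not be placed here, so the 2 stretches shown were chosen after the peaks were seen.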

Additional observations from a re-analysis of the deposited data

How the results depend on the processing

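The count of 3 lost genes was the same under all 7 alternatives run for it, and no difference in peak number changed direction under any alternative, although that of BCL2L1 came to 0 without knockdown replicate 2. Counts of regions depended most on the processing. In the stronger 50% of each list there were 4 lost, 1 gained and 1 kept regions, fewer than with all peaks, since this leaves fewer peaks. There the differences in peak number came to -2.00 for NAT10, -2.00 for MDM4, -4.00 for RRM2B, -1 for ZMAT3 and 1.5 for TP53I3, and 2 genes were kept. That of MDM2 grew to -7.00 from -5.50. BAX came to 4.00, XIAP to -2.50 and BCL2L1 to 2.50, against 4.50, -3.00 and 2.50 with all peaks. Leaving out 1 library gave 11 to 31 lost, 4 to 21 gained and 3 to 6 kept regions, since a region then needs 1 list of its group. Lost regions numbered 30 when the first wild-type library was left out and 31 when the second was, the gained count 21 and 15 without knockdown replicates 1 and 2. The kept count was 6 without wild-type replicate 1 and 5 without either knockdown replicate. Gained genes numbered 1 to 2, with BCL2L1 added without wild-type replicate 2. With the replicate number as a block, the difference in peaks of the set was again -12.5 (exact sign-flip p = 0.500, the smallest it can give), as it is by construction. Same-numbered libraries did not deviate together across genes (correlation 0.0152 over 10992 genes), and the numbers are not known to pair the samples. Depth is unknown, so weakly covered transcripts cannot be told from unmodified ones.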
